A study of Mus musculus with 16 samples.

Results

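The Mef2 factors Mef2a, Mef2b, Mef2c and Mef2d and the class IIa deacetylases Hdac4, Hdac5, Hdac7 and Hdac9 were compared between FO (follicular) B cells and MZ (marginal zone) B cells of the mouse spleen. The 8 genes were taken by symbol from the 27928 genes of the expression table. All 8 had a mean of at least 10 normalized counts over the 8 RNA libraries, as did 14761 genes in all, and these were tested. FO B cells had been sorted as CD21lo CD23hi and MZ B cells as CD21hi CD23lo after splenic B cells were enriched by negative selection, and ribosomal RNA was depleted before sequencing. Each subset came from wild-type (WT) C57BL/6 mice and from conditional knockout (cKO) mice that were Gtf2i fl/fl and carried a Cre driver specific to B cells, all 8 to 12 weeks old per the study's methods, with 2 libraries in each of the 4 groups. Gtf2i encodes the transcription factor TFII-I. The WT mice carried neither the floxed allele nor Cre, so the effects of these cannot be separated. Nothing in the labels says that the libraries of a group came from separate animals, and all p-values therefore measure the spread between these libraries, which may be technical.

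Mef2 factors are MADS-box transcription factors that bind A/T-rich DNA and are known for activity-dependent gene expression in muscle, neurons and lymphocytes. Class IIa deacetylases have little deacetylase activity of their own and act as corepressors that bind Mef2 factors on chromatin. When CaM kinases, protein kinases D or salt-inducible kinases phosphorylate them, 14-3-3 proteins hold them in the cytoplasm and Mef2 factors are freed, while calcineurin and MAP kinases act on the Mef2 proteins themselves. In B cells, Mef2c is known for its part in survival and proliferation after B cell receptor stimulation, and Mef2b for its expression in germinal center B cells.

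The libraries held 21546552 to 25083552 reads on genes, and the smallest member, Mef2b, still had 35.9 to 125 normalized counts per library. Cr2, which encodes CD21, ran from 22942 to 26803 normalized counts in FO and from 86953 to 97087 in MZ libraries, and Fcer2a, which encodes CD23, from 24802 to 41973 in FO and from 3069 to 6708 in MZ libraries. Gtf2i had 1523 and 1531 normalized counts in cKO FO libraries against 2040 and 1992 in WT FO, and 1782 and 1889 in cKO MZ against 2864 and 2471 in WT MZ. Both cKO libraries thus lay below both WT libraries in each subset. The log2 difference, cKO minus WT, was -0.40 in FO (95% interval -0.62 to -0.18) and -0.54 in MZ (95% interval -0.76 to -0.31). The counts cover the whole gene and not the floxed part alone. With adjustment over all tested genes, the difference was called in neither subset (limma adjusted p = 0.989 in FO and 0.363 in MZ). The libraries stood apart in 2 ways. In cKO MZ replicate 1, 6 granulocyte markers summed to 1582 normalized counts and 4 erythroid markers to 10149, against 20.9 to 80.4 and 18.0 to 747 in the other 7 libraries. Xist ran from 25930 to 47002 and Ddx3y from 1.00 to 6.34 normalized counts in the 4 WT libraries, whereas 3 cKO libraries had 21.7 to 89.7 for Xist and 4439 to 5514 for Ddx3y, and cKO FO replicate 1 had 14748 and 2682. Summed markers of dendritic cells (190 to 265 in FO, 307 to 507 in MZ) and of NK cells (86.6 to 343 and 382 to 573) were higher in MZ libraries and those of platelets (69.4 to 98.8 and 40.8 to 58.8) in FO libraries. The NK cell sum rested on Prf1 (43.3 to 84.7 in FO, 299 to 410 in MZ), while the other 4 NK cell markers overlapped, and the platelet sum on Itga2b, since Pf4 and Ppbp were at 0 to 7.97 normalized counts. Summed markers of T cells (786 to 1286 in FO, 751 to 1245 in MZ) and of plasma cells (2855 to 4631 and 3043 to 6861) overlapped between the subsets within each genotype. The T cell sum rested on Lck (692 to 1226), while Trac was higher in MZ (6.72 to 13.3 in FO, 21.9 to 38.9 in MZ). In the plasma cell sum, Sdc1 was lower in MZ (331 to 463 in FO, 27.0 to 101 in MZ) and Prdm1 higher (77.1 to 153 and 279 to 594). Summed markers of macrophages and monocytes overlapped in WT (701 and 1287 in FO, 741 and 1809 in MZ) and were higher in MZ in cKO (1840 and 1181 against 1084 and 672). Among them, Cd68 was higher in MZ in both genotypes (173 to 221 in FO, 283 to 384 in MZ). Adgre1 was lower in MZ in cKO (76.7 and 65.0 against 150 and 81.5). Those of germinal center B cells overlapped in WT (4357 and 4069 in FO, 2365 and 5027 in MZ) and were lower in MZ in cKO (3833 and 2256 against 4194 and 4297). No listed marker was at 0 in every library. The part of these other markers in the results was not tested.

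In FO relative to MZ B cells, Mef2c was higher in both genotypes, Hdac5 was higher in both by the adjusted p but past the fold threshold in cKO alone, and the other 6 members were not called. A gene was called at a limma adjusted p of at most 0.05, with Benjamini-Hochberg adjustment over all 14761 tested genes, and a fold of at least 1.5, where differences are of log2(normalized count + 1). In WT 1 of the 8 members, Mef2c, was called higher in FO, against 4.62% of all tested genes. In cKO 2 of 8, Mef2c and Hdac5, were called higher in FO, against 5.54%. No member was called lower in FO, in a background of 7.41% in WT and 8.18% in cKO. At any fold, 2 of 8 members in WT (Mef2c and Hdac5) and 3 of 8 in cKO (these and Hdac7) passed the adjusted p with a higher level in FO, against 7.51% and 9.29%. These counts are too small to set the 8 genes apart from the rest. Both FO libraries lay above both MZ libraries for 5 of 8 members in WT (Mef2a, Mef2c, Hdac5, Hdac7 and Hdac9), against 27.2% of all tested genes, and for 7 of 8 in cKO, where Hdac4 was the exception, against 33.1%. The median difference of the members, FO minus MZ on the log2 scale, was 0.37 in WT and 0.61 in cKO, with medians over all tested genes of 0.0048 and 0.0047. In bulk RNA, fewer cells that express a gene and less RNA per cell cannot be told apart.

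**Figure D1:**
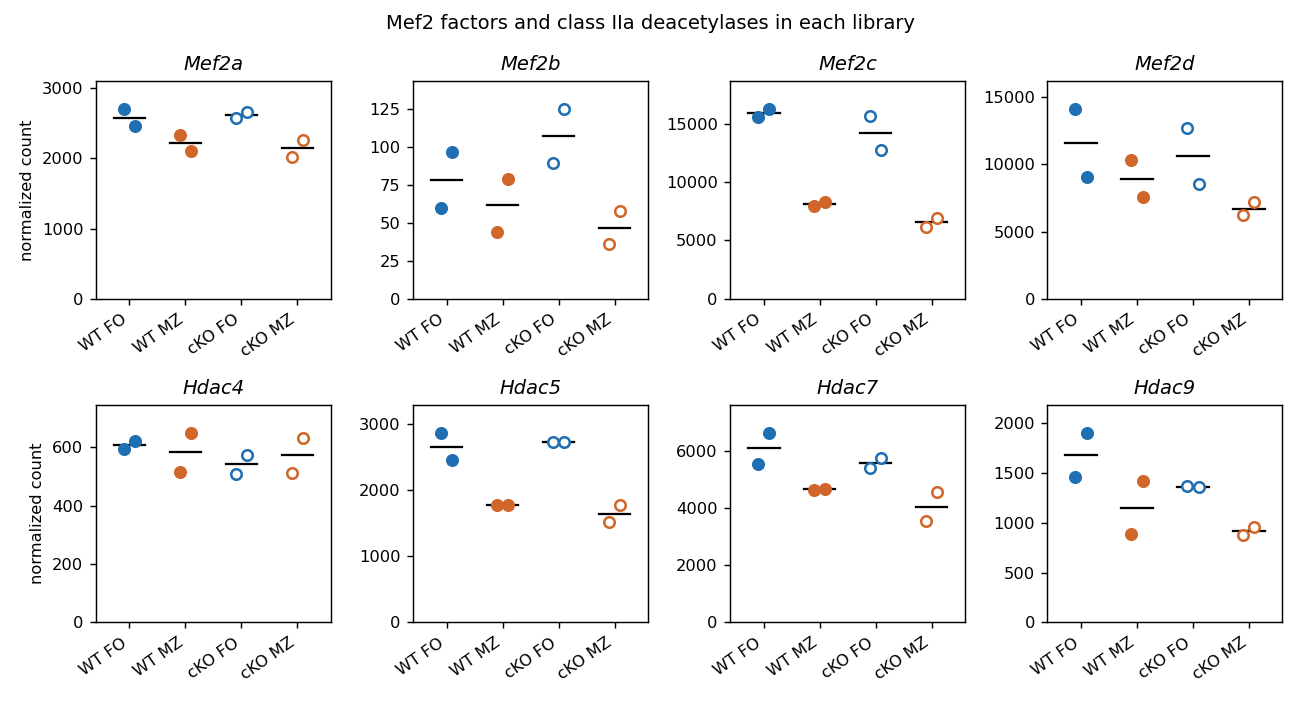
Normalized counts (y axis, from 0 in each panel) of the 8 genes in each library of the 4 groups (x axis), with FO in blue, MZ in orange, filled points for WT, open points for cKO, and a line at the group mean of 2 libraries. Mef2c is at 12752 to 16243 in the FO libraries and 6192 to 8329 in the MZ libraries, while the Hdac4 points overlap.

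Mef2c (ENSMUSG00000005583.16, chr13:83504034-83667080, plus strand, GRCm38) gave the clearest separation. Its normalized counts were 15571 and 16243 (FO) beside 7918 and 8329 (MZ) in the WT libraries. In cKO they were 15698 and 12752 in FO and 6192 and 6928 in MZ. Every FO library thus lay above every MZ library, whichever the genotype. The FO minus MZ difference was 0.97 on the log2 scale in WT (SE 0.116, 1.96-fold, limma adjusted p = 0.00165) beside 1.11 in cKO (SE 0.116, 2.16-fold, limma adjusted p = 0.000814). Leaving out each library in turn kept the call in both genotypes, with a difference of 0.93 to 1.01 in WT and 0.96 to 1.26 in cKO. Without cKO MZ replicate 1, which held the granulocyte and erythroid RNA, the cKO difference was 1.03 (limma adjusted p = 0.0131), and without cKO FO replicate 1 it was 0.96 (limma adjusted p = 0.00639).

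Mef2d (ENSMUSG00000001419.17, chr3:88142372-88172086, plus strand), a broadly expressed Mef2 factor, had the widest spread between libraries, by the SE of its difference, among the members other than Mef2b. It had 14095 and 9076 (FO) beside 10333 and 7552 (MZ) normalized counts in the WT libraries, and these overlapped. In cKO it had 12735 and 8523 in FO and 6212 and 7214 in MZ, which did not overlap. Replicate 1 stood 1.55, 1.37 and 1.49 times as high as replicate 2 in WT FO, WT MZ and cKO FO, and 0.861 times in cKO MZ. The FO minus MZ difference was 0.36 in WT (SE 0.264, limma adjusted p = 0.421) beside 0.64 in cKO (1.56-fold, limma adjusted p = 0.136), so neither passed the test. Without cKO FO replicate 1 the cKO difference was 0.35 (limma adjusted p = 0.534), and leaving out each library in turn moved the WT difference from 0.039, without WT FO replicate 1, to 0.67, without WT FO replicate 2. DESeq2 on the reads recovered from the table did call Mef2d in cKO (0.66, adjusted p = 0.0326), where it called 6.06% of the tested genes higher in FO, as did the limma fit of the 4 cKO libraries alone (adjusted p = 0.0451).

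Mef2a (ENSMUSG00000030557.17, chr7:67231163-67372858, minus strand), also broadly expressed, had the smallest SE among the 8 members. It had 2699 and 2464 (FO) beside 2341 and 2101 (MZ) normalized counts in the WT libraries, then 2581 and 2663 (FO) beside 2027 and 2260 (MZ) in the cKO libraries. FO libraries lay above MZ libraries in each genotype, by 0.22 in WT (SE 0.0988, limma adjusted p = 0.186) beside 0.29 in cKO (limma adjusted p = 0.0776), below the threshold of the test.

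Mef2b (ENSMUSG00000079033.10, chr8:70139711-70167488, plus strand) was the least abundant member. It had 59.9 and 97.0 (FO) beside 44.3 and 78.8 (MZ) normalized counts in the WT libraries, then 89.6 and 125 (FO) beside 35.9 and 57.7 (MZ) in the cKO libraries. The WT groups overlapped and the cKO groups did not. The difference was 0.36 in WT (SE 0.403, 95% interval -0.57 to 1.30, limma adjusted p = 0.609) beside 1.20 in cKO (95% interval 0.26 to 2.13, limma adjusted p = 0.0764), so that at this depth a difference in WT as large as that in cKO was within the interval. In cKO it was called in the fit of the 4 cKO libraries alone and under quantile normalization (limma adjusted p = 0.0369 and 0.0434). It was called in cKO neither by DESeq2 (adjusted p = 0.0534) nor by edgeR (adjusted p = 0.0852). Leaving out each library in turn moved the cKO difference from 0.86 to 1.53. Summed markers of germinal center B cells, which are known to express Mef2b, likewise overlapped between FO and MZ libraries in WT and not in cKO, as given above, and their part in this difference was not tested.

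Among the class IIa deacetylases, Hdac5 (ENSMUSG00000008855.17, chr11:102194432-102230166, minus strand) had the smallest SE and the largest differences. It had 2857 and 2453 (FO) beside 1776 and 1773 (MZ) normalized counts in the WT libraries. In cKO it had 2728 and 2723 in FO against 1515 and 1772 in MZ. All 4 FO libraries were above all 4 MZ libraries. In WT the difference of 0.58 (SE 0.109, 1.49-fold) passed the adjusted p (limma adjusted p = 0.0110) and fell just under the fold threshold. In cKO it was 0.73 (SE 0.109, 1.66-fold, limma adjusted p = 0.00360) and was called. Leaving out WT FO replicate 2 raised the WT difference to 0.69 and brought it past the threshold (limma adjusted p = 0.0149), and leaving out WT FO replicate 1 lowered it to 0.47 (limma adjusted p = 0.0615). Without cKO MZ replicate 1 the cKO difference was 0.62 (limma adjusted p = 0.0344).

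Hdac7 (ENSMUSG00000022475.19, chr15:97792664-97844502, minus strand), a lymphoid class IIa deacetylase known for repression of other lineages' genes in B cell precursors, followed with smaller differences. It had 5565 and 6631 (FO) beside 4632 and 4682 (MZ) normalized counts in the WT libraries, then 5416 and 5767 (FO) beside 3550 and 4568 (MZ) in the cKO libraries. The FO libraries were again above the MZ libraries in both genotypes. The difference was 0.38 in WT (SE 0.135, 1.30-fold, limma adjusted p = 0.0986) beside 0.47 in cKO (1.39-fold, limma adjusted p = 0.0464), and the latter passed the adjusted p at a fold too small to be called. Without cKO MZ replicate 2 it was 0.65 (limma adjusted p = 0.0321) and was called. Without cKO MZ replicate 1, the library with granulocyte and erythroid RNA, it was 0.29 (limma adjusted p = 0.258) and no longer passed, and it did not pass without either cKO FO library (limma adjusted p = 0.135 and 0.172).

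Hdac9 (ENSMUSG00000004698.11, chr12:34047580-34917095, minus strand), itself a known Mef2 target, had 1458 and 1899 (FO) beside 882 and 1424 (MZ) normalized counts in the WT libraries, then 1371 and 1354 (FO) beside 876 and 957 (MZ) in the cKO libraries. The groups did not overlap within a genotype, although WT MZ replicate 2 lay close to the lower WT FO library. The difference was 0.57 in both genotypes (SE 0.219, limma adjusted p = 0.125 in WT and 0.110 in cKO) and was not called. Without WT MZ replicate 2 the WT difference was 0.91 (limma adjusted p = 0.0156) and was called, and without WT MZ replicate 1 it was 0.22 (limma adjusted p = 0.459).

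Hdac4 (ENSMUSG00000026313.16, chr1:91928779-92195699, minus strand) had 595 and 622 (FO) beside 515 and 648 (MZ) normalized counts in the WT libraries, then 510 and 572 (FO) beside 510 and 632 (MZ) in the cKO libraries. FO and MZ libraries overlapped in both genotypes. The difference was 0.07 in WT (95% interval -0.29 to 0.44, limma adjusted p = 0.801) beside -0.07 in cKO (95% interval -0.44 to 0.29, limma adjusted p = 0.782), and the cKO value was 0.012 under quantile normalization.

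**Figure D2:**
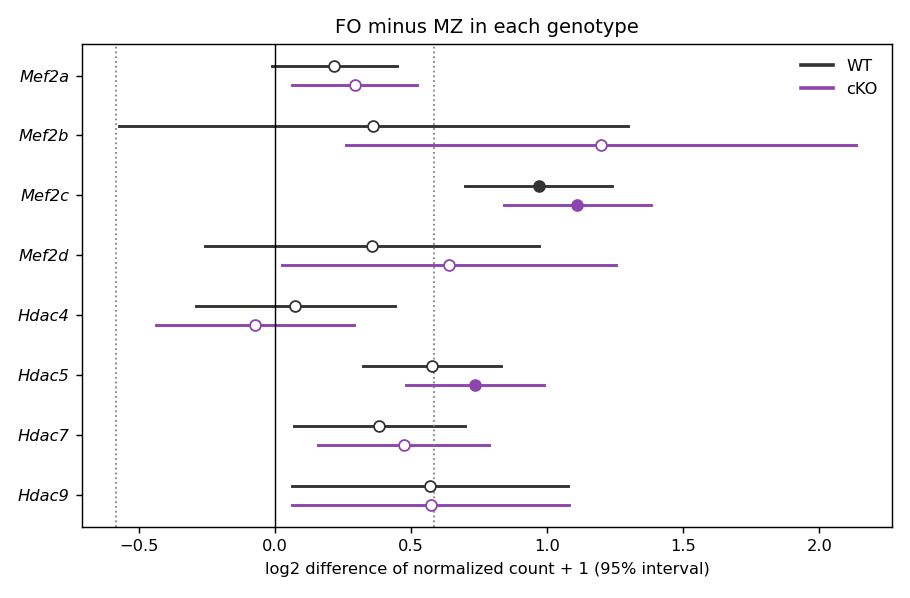
FO minus MZ log2 difference of normalized count + 1 (x axis) of each gene (y axis) in WT (black) and cKO (purple), with 95% intervals of the limma fit, filled points where a gene was called and dotted lines at 1.5-fold. Mef2c lies at 0.97 and 1.11, Hdac5 at 0.58 and 0.73, and the Hdac4 intervals span 0 in both genotypes.

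The promoters of Hdac5 and Mef2a are shown because, of the 8 members, only these held the consensus site of Mef2 factors in a window from 250 bases before to 50 bases after a RefSeq start (GRCm38.p6). RefSeq gave 14 such windows for the 8 genes. The 10-base MEF2 consensus, which reads the same on both strands, was present in 3.19% of all 32851 windows of that length. By gene, 3.7% of all genes with a window held it in at least 1 window. It was not found in the 3 windows of Mef2c. The sequences below run 5′ to 3′ on the strand of the gene, with the match in capitals, at -20 to -11 from the start in Hdac5 (chr11:102230123-102230422, minus strand) and at -2 to 8 in Mef2a (chr7:67372809-67373108, minus strand).
Hdac5: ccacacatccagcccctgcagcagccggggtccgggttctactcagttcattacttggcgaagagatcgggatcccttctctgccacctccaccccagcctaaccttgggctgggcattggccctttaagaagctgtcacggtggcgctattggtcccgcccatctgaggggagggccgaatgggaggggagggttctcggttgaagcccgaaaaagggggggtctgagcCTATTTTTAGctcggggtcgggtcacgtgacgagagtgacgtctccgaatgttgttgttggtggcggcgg
Mef2a: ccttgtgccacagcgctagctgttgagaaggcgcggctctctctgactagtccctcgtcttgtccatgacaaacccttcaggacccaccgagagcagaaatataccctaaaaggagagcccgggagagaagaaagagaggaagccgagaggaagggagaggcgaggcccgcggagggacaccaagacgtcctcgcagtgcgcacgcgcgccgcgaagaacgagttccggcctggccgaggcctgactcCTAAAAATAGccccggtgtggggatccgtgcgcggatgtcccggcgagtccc
The match in Hdac5 stands beside a gene that was higher in FO and that in Mef2a beside a gene whose difference did not pass the test. Among all tested genes, 191 held the consensus in a window, and their median FO minus MZ difference was -0.02 in WT and -0.04 in cKO. Of these, 3.14% in WT and 5.76% in cKO were called higher in FO, against 4.85% and 5.72% of the 9838 tested genes that had a window. A match is a description of the sequence and does not show binding.

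Levels of different genes were compared per kilobase of annotated exon, since longer transcripts give more reads. Mef2d was at 1262 to 2355 normalized counts per kilobase in the WT libraries, Mef2c at 504 to 1034, Mef2a at 143 to 184 and Mef2b at 31.6 to 69.1. Of the summed Mef2 level per kilobase, Mef2c made up 27.7% and 37.1% in WT FO and 20.8% and 26.6% in WT MZ. In cKO its share was 29.7% and 32.4% (FO) beside 24.7% and 23.9% (MZ). The share of Mef2c was thus higher in both FO libraries than in both MZ libraries of each genotype. The order of Mef2c and Mef2d rested on the length used. With the longest transcript in place of all exons, the mean share of Mef2c in WT FO was 49.1% in place of 32.4% and that of Mef2d 40.8% in place of 60.2%, while in WT MZ Mef2d kept the larger share (48.5% against 38.3%).

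**Figure D3:**
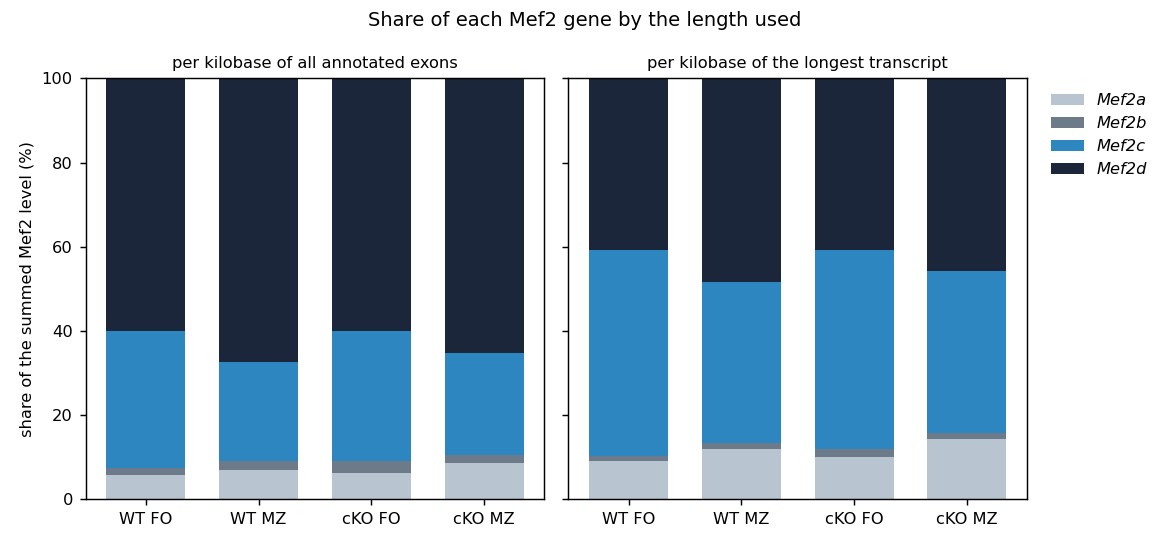
Mean share of each Mef2 gene in the summed level of the 4 genes (y axis, percent) in the 4 groups (x axis), per kilobase of all annotated exons on the left and of the longest transcript on the right. The Mef2c share is larger in FO than in MZ on both sides, and with the longest transcript it passes that of Mef2d in FO, 49.1% against 40.8% in WT.

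Among the class IIa genes, Hdac7 had the largest share of the summed level per kilobase, 66.4% ± 3.26 (SD, n = 2) in WT FO and 68.5% ± 1.998 in WT MZ. Hdac5 held 22.4% ± 4.08 and 20.1% ± 0.762, Hdac9 8.39% ± 0.938 and 7.77% ± 2.31, and Hdac4 2.84% ± 0.122 and 3.64% ± 0.453. In cKO, Hdac4 held 2.70% ± 0.138 in FO and 4.07% ± 0.0133 in MZ. The order Hdac7, Hdac5, Hdac9, Hdac4 was the same in all 8 libraries and with either length, and the levels of neighbours in that order did not overlap within any group. The share of Hdac4 was higher in both MZ libraries than in both FO libraries of each genotype. The summed Mef2 level was 2787 and 3572 (WT FO), 1991 and 2421 (WT MZ), 2506 and 3366 (cKO FO) and 1596 and 1841 (cKO MZ), and the summed class IIa level 1286 and 1430, 981 and 1033, 1238 and 1292, and 790 and 983 in the same order of groups. Both sums were higher in FO than in MZ without overlap in each genotype.

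Some annotated genes share exon bases with members, and whether the counting used strand is not given in the sources used here. Mef2b shares 62 bases with Borcs8 on the same strand, which had a mean of 788 normalized counts against 73.5 for Mef2b. The FO minus MZ difference of Borcs8 was -0.17 in WT and -0.05 in cKO, opposite in sign to that of Mef2b. Lysmd4 lies opposite Mef2a (302 shared bases, mean 238), 1700113A16Rik opposite Mef2d (531 bases, mean 35.7) and Slc48a1 opposite Hdac7 (29 bases, mean 719.9), and none of these 4 genes was called in either genotype. Gm26720 lies opposite Hdac4 and shares 3536 of its 15813 exon bases, and Mir8101 shares 111 bases with Hdac5 on the same strand. Neither was analysed here. Reads in the shared bases cannot be assigned with certainty, and for Mef2b, whose neighbour is the more abundant, this could alter the level.

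By the pattern over the 8 libraries, measured as the root mean square difference of log2 values centred on each gene's mean, the 3 tested genes nearest to Mef2c were Mtss1 at 0.0743, Aff3 at 0.0918 and Cerk at 0.0967. Mtss1 encodes an actin- and membrane-binding protein, Aff3 a nuclear protein of lymphoid cells and Cerk ceramide kinase. Mtss1 had 6434 and 6235 (FO) beside 3350 and 3702 (MZ) normalized counts in the WT libraries, then 6020 and 5236 (FO) beside 2533 and 2631 (MZ) in the cKO libraries. Its FO minus MZ difference was 0.85 in WT and 1.12 in cKO, beside 0.94 and 1.19 for Aff3 and 1.05 and 1.22 for Cerk.

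Of the kinases that phosphorylate class IIa deacetylases, 15 of 18 listed genes were tested, with Camk4, Prkd1 and Mark1 under the minimum at means of 5.54, 0.387 and 1.84 normalized counts. In each genotype 2 were called higher in FO and 1 lower. Over all tested genes, 4.62% in WT and 5.54% in cKO were called higher in FO, and 7.41% and 8.18% lower. This background holds for each list below, and whether any list differs from it was not tested. The median difference of the kinase list was 0.21 in WT and 0.33 in cKO, beside the medians of 0.0048 and 0.0047 over all tested genes. Prkd2, protein kinase D2, had 11241 and 10689 (FO) beside 6826 and 6184 (MZ) normalized counts in the WT libraries, then 10702 and 9468 (FO) beside 4844 and 5220 (MZ) in the cKO libraries. The difference was 0.75 in WT (1.69-fold, limma adjusted p = 0.00232) beside 1.00 in cKO (limma adjusted p = 0.000608), and Prkd2 was called in both. The salt-inducible kinase Sik2 was called in WT (0.63, limma adjusted p = 0.0208) and not in cKO (0.44, limma adjusted p = 0.0665). Its relative Sik3 was called in cKO (0.63, limma adjusted p = 0.00780) and not in WT (0.37, limma adjusted p = 0.0606). The test of the difference between genotypes itself called neither, nor any other gene. The Sik2 call was lost without WT FO replicate 1 or either WT MZ library (limma adjusted p = 0.0701 to 0.109) and in the fit of the WT libraries alone (limma adjusted p = 0.0672), and the Sik3 call without cKO FO replicate 1 or cKO MZ replicate 1 (limma adjusted p = 0.0592 and 0.0631).

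Camk2a, a CaM kinase II subunit best known from neurons, went the other way. It had 29.9 and 41.9 (FO) beside 113 and 126 (MZ) normalized counts in the WT libraries, then 47.0 and 39.3 (FO) beside 125 and 108 (MZ) in the cKO libraries. FO minus MZ was -1.72 in WT (limma adjusted p = 0.00431) beside -1.41 in cKO (limma adjusted p = 0.00857). The cKO call was lost without cKO FO replicate 2 (adjusted p = 0.0520, limma) and without cKO MZ replicate 1 (adjusted p = 0.0768, limma), at -1.29 and -1.31.

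Of the calcineurin and MAP kinase genes that act on Mef2 factors, 13 of 14 were tested. In both genotypes 3 were called higher in FO, against 3.96% of all tested genes, and none lower. The median difference of the list was 0.10 in WT and 0.22 in cKO. Ppp3ca, a catalytic subunit of calcineurin, had 6965 and 7399 (FO) beside 3591 and 3939 (MZ) normalized counts in the WT libraries, and was higher in FO by 0.93 in WT and 1.01 in cKO (limma adjusted p = 0.000519 and 0.000335). Mapk11, which encodes p38 beta, had 4584 and 4055 (FO) beside 800.4 and 1020 (MZ) normalized counts in the WT libraries, then 4282 and 3998 (FO) beside 780.4 and 717 (MZ) in the cKO libraries. This was a difference of 2.25 in WT (4.77-fold, limma adjusted p = 8.68e-05) beside 2.47 in cKO (5.53-fold, limma adjusted p = 5.12e-05).

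Mapk12, which encodes p38 gamma, had 934 and 603 (FO) beside 115 and 141 (MZ) normalized counts in the WT libraries, then 796 and 558 (FO) beside 126 and 73.2 (MZ) in the cKO libraries. It was 2.55 higher in FO in WT (5.86-fold, limma adjusted p = 0.00200) beside 2.78 in cKO (6.88-fold, limma adjusted p = 0.00122). Mapk12 lies between Mapk11 and the deacetylase gene Hdac10 on the minus strand of chromosome 15, 1782 bases from Mapk11 and 1883 bases from Hdac10. All 3 genes were higher in FO.

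Of the 7 other deacetylases, Hdac10 was called higher and Hdac11 lower in FO in both genotypes, and Hdac1, Hdac2, Hdac3, Hdac6 and Hdac8 were not called. The median difference was -0.02 in WT and -0.14 in cKO. Hdac10, a class IIb enzyme known as a polyamine deacetylase, had 4786 and 4631 (FO) beside 2650 and 2681 (MZ) normalized counts in the WT libraries, then 4183 and 4382 (FO) beside 2415 and 2137 (MZ) in the cKO libraries. The difference was 0.82 in WT (limma adjusted p = 0.000986) beside 0.91 in cKO (limma adjusted p = 0.000563). Hdac11, the class IV enzyme, had 160 and 163 (FO) beside 329 and 248 (MZ) normalized counts in the WT libraries, then 171 and 148 (FO) beside 309 and 277 (MZ) in the cKO libraries. FO minus MZ was -0.82 in WT (limma adjusted p = 0.0210) beside -0.87 in cKO (limma adjusted p = 0.0147). The WT call of Hdac11 was lost without WT FO replicate 1, WT FO replicate 2 or WT MZ replicate 1 (limma adjusted p = 0.0815, 0.0622 and 0.118), under quantile normalization (limma adjusted p = 0.0551) and in the fit of the WT libraries alone (limma adjusted p = 0.0868), and the cKO call without cKO FO replicate 2 or either cKO MZ library (limma adjusted p = 0.0798, 0.113 and 0.0620).

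All 7 genes of 14-3-3 proteins were tested, with a median difference of 0.41 in WT and 0.35 in cKO. In WT 1 was called higher in FO and in cKO 2, with none lower. Sfn, the sigma form, had 1047 and 842 (FO) beside 393 and 365 (MZ) normalized counts in the WT libraries, and differed by 1.31 in WT (limma adjusted p = 0.00279) beside 1.43 in cKO (limma adjusted p = 0.00167). Ywhah, the eta form, was 0.77 higher in FO in cKO (limma adjusted p = 0.00398), and at 0.46 in WT it passed the adjusted p (limma adjusted p = 0.0337) but not the fold.

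Of the 15 corepressors and coactivators, all tested, 1 was called lower in FO in WT and none in cKO, with medians of 0.12 and 0.16. Tbl1xr1 encodes a subunit of the NCoR complex that class IIa deacetylases bind. It had 4093 and 3505 (FO) beside 5774 and 5924 (MZ) normalized counts in the WT libraries (-0.63, limma adjusted p = 0.00740). In cKO its difference of -0.48 had a limma adjusted p = 0.0190 and missed the fold. The WT call was lost without WT FO replicate 2, at -0.51. Of 6 genes often listed as Mef2 targets, among them the member Hdac9, 5 were not called in either genotype. The median difference of that list was -0.11 in WT and 0.18 in cKO. Klf2, which encodes a transcription factor of quiescent and trafficking lymphocytes, had 21384 and 24809 (FO) beside 7893 and 9795 (MZ) normalized counts in the cKO libraries (1.39, limma adjusted p = 0.0499). In WT it had 25736 and 16010 in FO and 14383 and 5618 in MZ (1.18, limma adjusted p = 0.0933), and the libraries did not separate as far as in cKO. Without WT MZ replicate 1 the WT difference was 1.85 (limma adjusted p = 0.00792) and was called, and without WT MZ replicate 2 it was 0.50 (limma adjusted p = 0.312). The cKO call of Klf2 was lost without any single cKO library (limma adjusted p = 0.129 to 0.236), and also with a pseudocount of 0.5, TMM, quantile normalization, no filter or edgeR (adjusted p = 0.0502 to 0.0728).

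**Figure D4:**
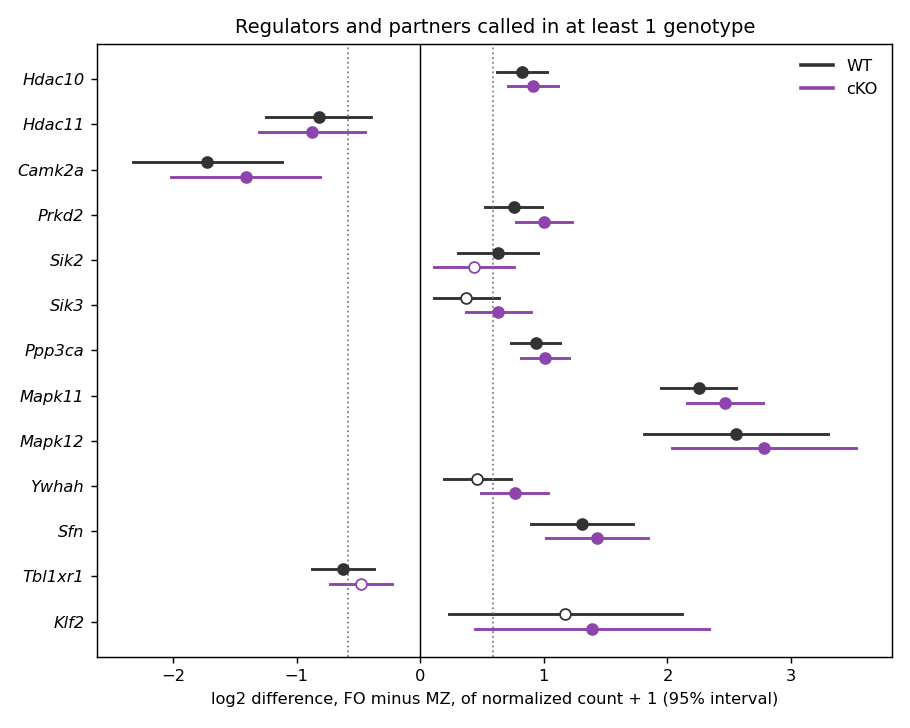
FO minus MZ log2 difference of normalized count + 1 (x axis) of the 13 listed regulators and partners that were called in at least 1 genotype (y axis), WT in black and cKO in purple, with 95% intervals of the limma fit, filled points where called and dotted lines at 1.5-fold. Mapk12 at 2.55 and 2.78 and Mapk11 at 2.25 and 2.47 lie farthest to the right, and Camk2a at -1.72 and -1.41 farthest to the left.

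Between genotypes, no member was called in FO or in MZ B cells, in a background of 0.0677% and 0.0339% of all tested genes called in either direction. In FO B cells 5 members were lower and 3 higher in cKO by their mean log2 values, and the median difference, cKO minus WT, was -0.12. In MZ B cells all 8 members had lower mean log2 values in cKO, with a median of -0.25 against -0.015 over all tested genes. Without cKO MZ replicate 1, the library with granulocyte and erythroid RNA, Mef2a and Hdac4 were at 0.027 and 0.13, Mef2b, Hdac5 and Hdac7 at -0.033, -0.0025 and -0.028, and Mef2c, Mef2d and Hdac9 at -0.23, -0.29 and -0.23. The libraries did not overlap for 4 of 8 members in MZ (Mef2c, Mef2d, Hdac5 and Hdac7), against 34.5% of all tested genes in either direction, and for 2 of 8 in FO (Hdac4 and Hdac9), against 24%. The values of the groups are those given above.

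Mef2c was 0.31 lower in cKO than in WT MZ B cells (SE 0.116, 1.24-fold), which had an unadjusted p of 0.0297 and an adjusted p = 0.998 in limma over all genes and so did not pass. In FO B cells the difference of Mef2c was -0.17 (95% interval -0.44 to 0.10). Mef2d was at -0.40 in MZ (95% interval -1.01 to 0.21) and -0.12 in FO, and Hdac9 at -0.29 in each subset (95% interval -0.80 to 0.22 in both). The Xist and Ddx3y levels given above differ with genotype, and the sex of the mice and the genotype cannot be told apart in these libraries.

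**Figure D5:**
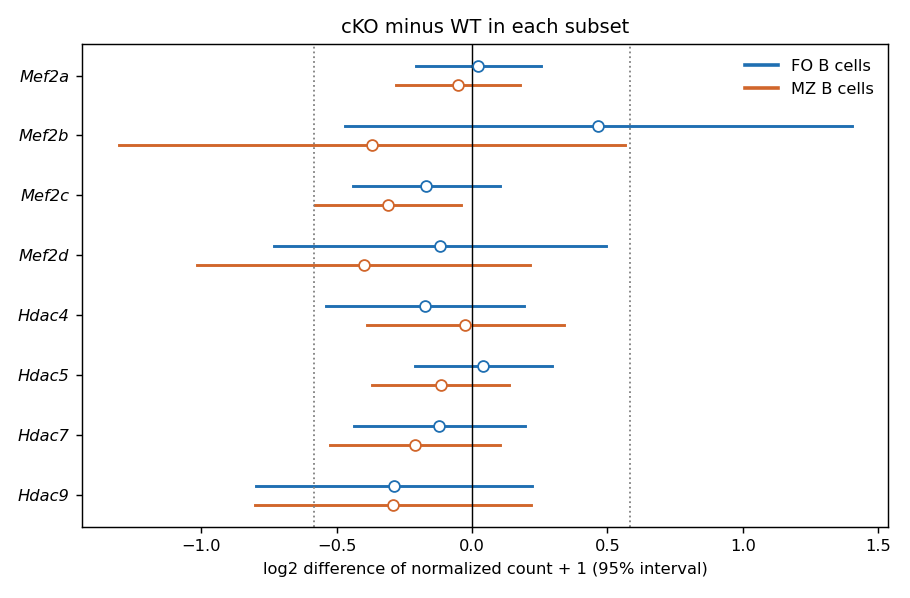
cKO minus WT log2 difference of normalized count + 1 (x axis) of each gene (y axis) in FO (blue) and MZ (orange) B cells, with 95% intervals of the limma fit and dotted lines at 1.5-fold. No point is filled, since no member was called, and the MZ points lie between -0.40 and -0.02.

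Whether the FO minus MZ difference itself differed between genotypes was tested as an interaction. No member was called, nor was any of the 14761 genes, a background of 0%, by limma, edgeR or DESeq2, and 94 genes had an unadjusted p under 0.05 in limma. The FO minus MZ difference was larger in cKO than in WT for 7 of 8 members by its value, and these comparisons rest on the same libraries as those above. For Mef2c the difference between genotypes was 0.14 (95% interval -0.24 to 0.52), for Hdac5 0.16 (95% interval -0.20 to 0.52) and for Mef2b 0.84 (95% interval -0.49 to 2.16). Calls in cKO alone, as for Hdac5, were therefore not shown to be particular to cKO.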

How the data were processed

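Per the study's methods and the submitters' processing notes, the authors trimmed 50-base single-end reads, aligned them to mm10 with HISAT2, counted them per gene with featureCounts or HTSeq and normalized with DESeq2. Versions, annotation and strand setting are not given in the sources used here. The deposited signal is a normalized count, the count divided by a size factor per library. Reads recovered from it were whole within 0.01 for 100% of values. ATAC-seq was not analysed here.

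Differences were tested with limma 3.58.1 (trend) in R 4.3.3 on log2(normalized count + 1) over 14761 genes with a mean of at least 10, in 1 fit of the 8 libraries with 4 group means, and checked on simulated data. Alternatives were edgeR 4.0.16, DESeq2 1.42.0, other scalings, filters, cutoffs and lengths, a replicate block, and leaving out each library. Gene positions and exon lengths were taken from GENCODE M21 (GRCm38), promoters from RefSeq. Of the 27928 identifiers, 27872 were found there, Hdac9 in another version. Named were the members, genes sharing their exon bases, listed genes called in FO minus MZ, the 3 genes nearest to Mef2c, and check genes. The members and lists were chosen with earlier results of these data known. Counts carry counting error besides the spread between libraries.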

Additional observations from a re-analysis of the deposited data

How the results depend on the processing

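With 2 libraries per group, intervals were wide, and a p that misses the threshold does not show that values were alike. Over the 40 member differences and 752 alternatives, 707 kept direction and side of the threshold, 2 were weaker, 12 stronger and 31 reversed. Fold cutoffs, the filter, the blocks and leaving out a library outside the groups compared leave the value of a difference unchanged by design. No member was called between genotypes or in the interaction. The tally is therefore no measure of how stable the calls were. Mef2c was called in both genotypes under every alternative run, except in WT when at least 2-fold was required. Where a value below reversed, the cause was not tested.

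Members called in WT were 2 with no fold cutoff, 0 at 2-fold and 1 to 2 when a library was left out (2 without WT FO replicate 2, Hdac5 being added, or WT MZ replicate 2, Hdac9 being added). Members called in cKO were 4 in the fit of only the 4 libraries and 1 at 2-fold. All genes called were 1014 in WT in the fit of 4 libraries, in place of 1776, and 1325 in cKO at 2-fold, in place of 2026, with 1073 to 2119 when a library was left out (1210 without cKO FO replicate 1, 1073 without cKO MZ replicate 1, 1348 without cKO MZ replicate 2). Between genotypes, 10 genes were called in FO, with 4 in the fit of 4 libraries, 25 by DESeq2 and 4 to 11 when a library was left out, and 5 in MZ, with 50 by DESeq2.

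The labels do not say that a replicate number pairs libraries, and the deviations of libraries with the same number correlated at 0.591 between WT FO and WT MZ, -0.0015 between cKO FO and cKO MZ and -0.296 between WT MZ and cKO MZ. With the replicate number as a block, 1973 genes were called in WT and 2262 in cKO, with 9 and 5 between genotypes, and Mef2b was added in cKO (limma adjusted p = 0.0101) while no other member's call changed. With the numbers of cKO MZ exchanged in that block, chosen after seeing the data, 2262 and 2585 genes were called, with 16 and 12 between genotypes and 4 members in cKO.

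Under quantile normalization the FO minus MZ difference reversed to 0.012 for Hdac4 in cKO, 0.11 for 1700113A16Rik in cKO and 0.023 for Lysmd4 in WT, and the Hdac9 interaction to -0.0019, or -0.0083 with TMM. Leaving out a library in turn gave FO minus MZ ranges that crossed 0 for Mef2b in WT (-0.047 to 0.77), Hdac4 in WT (-0.090 to 0.24) and cKO (-0.23 to 0.081), 1700113A16Rik in cKO (-0.29 to 0.10) and Lysmd4 in WT (-0.23 to 0.0014). It did so for cKO minus WT in FO of Mef2a (-0.042 to 0.089), Mef2d (-0.44 to 0.20), Hdac5 (-0.068 to 0.15) and Hdac7 (-0.25 to 0.0063), and in MZ of Mef2a (-0.13 to 0.027), Mef2b (-0.78 to 0.039), Hdac4 (-0.19 to 0.14) and Hdac9 (-0.64 to 0.054). The interaction crossed 0 for Mef2a (-0.0036 to 0.15), Mef2c (-0.0084 to 0.29), Mef2d (-0.036 to 0.60), Hdac4 (-0.31 to 0.016), Hdac7 (-0.092 to 0.27) and Hdac9 (-0.34 to 0.35).

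Per kilobase of the longest transcript, mean shares in WT FO, WT MZ, cKO FO and cKO MZ were 8.98%, 11.8%, 10.1% and 14.3% for Mef2a, 49.1%, 38.3%, 47.5% and 38.6% for Mef2c and 40.8%, 48.5%, 40.7% and 45.8% for Mef2d, with 1.27% for Mef2b in cKO MZ. In the same order they were 3.85%, 4.96%, 3.66% and 5.54% for Hdac4 and 60.1%, 62.3%, 59.2% and 61.4% for Hdac7. Hdac5 had 22.8%, 27.7% and 23.9% in WT MZ, cKO FO and cKO MZ, and Hdac9 10.8%, 9.42% and 9.12% in WT FO, cKO FO and cKO MZ.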
